A study of Homo sapiens with 6 samples.

Results

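The genes described are 10 that encode ligands of the TGF-beta family, the proteins that store or block them, and products that TGF-beta is known to induce. They were chosen by name, with earlier results of these data known. They are the ligand genes TGFB1, TGFB2 and INHBA, the latent TGF-beta binding protein genes LTBP1, LTBP2, LTBP3 and LTBP4, the activin antagonist FST, and the TGF-beta-induced genes TGFBI and PMEPA1. All 10 were found among the 19876 gene symbols counted. RNA was sequenced from A549, an established human lung adenocarcinoma line labelled as wild type and grown in serum-containing medium. In 3 libraries the cells had been given PBS, the negative control, and in 3 they had been given rhTR11B. TR11B stands for the protein of TNFRSF11B, also called osteoprotegerin, which cells secrete and which acts as a decoy for the TNF-family ligand RANKL. The labels do not spell out the reagent and give neither dose nor duration. They call the 3 libraries of each group biological replicates without saying whether separate cultures were used, so each p-value reflects only how far these libraries spread, and that spread may be technical. The comparison asked what exposure to the reagent does to the transcriptome.

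TGF-beta is secreted in a latent form, wrapped in its own propeptide. Latent TGF-beta binding proteins join that propeptide and anchor it to fibrillin and fibronectin in the matrix, from where alpha-v integrins and proteases release the active ligand. Activin A is a dimer of the INHBA product that needs no such release and is held in check by follistatin, the product of FST. Both ligands signal through receptor serine kinases to SMAD2 and SMAD3, and in carcinoma cells this route is known for its part in matrix production and cell migration.

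Library totals ran from 36315751 to 38148838 counts, so depth differed little between libraries. On the first principal component of log2 CPM (counts scaled to a common library total), which held 36.4% of the variance, PBS replicate 2 lay lowest at -18.4 and rhTR11B replicate 3 highest at 25.7. The share of counts from the 13 mitochondrially encoded genes was 6.63% to 7.71% with PBS and 7.88% to 10.4% with rhTR11B, and that from 82 cytosolic ribosomal protein symbols was 5.00% to 5.15% and 3.85% to 4.57%. Of 10 lung epithelial and A549 markers listed, 7 were among the gene symbols counted. AKR1B10, AKR1C1 and ALDH1A1 were not, and whether they had no counts or were left out cannot be told. The keratins KRT8 and KRT18 stood at 460 and 454 FPKM (fragments scaled to gene length and library total) over the 6 libraries. MUC1 had 380 to 518 counts per library and NQO1 had 7931 to 9639. CDH1, EPCAM and KRT19, which mark epithelial cells, had 0 to 1, 0 to 10 and 0 to 5 counts per library, so these defining markers were nearly absent from cells labelled as adenocarcinoma. The fibroblast markers summed to 2.88 to 3.78 CPM with PBS and 4.38 to 6.65 CPM with rhTR11B. Most of that sum came from COL1A1, and 8 of the 9 in the table lay under 1 CPM. Of 5 endothelial markers counted, 4 lay under 1 CPM, while ESAM stood at 93.9 FPKM over the 6 libraries.

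With rhTR11B, LTBP2, LTBP4, INHBA and PMEPA1 rose, by 1.38-fold, 1.30-fold, 1.28-fold and 1.31-fold. These 4 passed edgeR's quasi-likelihood test at a Benjamini-Hochberg adjusted p under 0.05, where 2.92% of the 13567 tested genes were called higher and 0.678% lower (3.6% in either direction). TGFB1, TGFB2, LTBP3 and TGFBI did not pass, with log2 fold changes of 0.15, 0.10, 0.28 and 0.28. FST and LTBP1 had too few counts to test. None of the 8 tested members was called lower by edgeR or by DESeq2, and 0 were lower at edgeR's unadjusted p under 0.05, where 10.3% of all tested genes were lower and 13.8% higher. All 8 log2 fold changes were positive, with a median of 0.32, beside 0.00 over all tested genes. Because the members were chosen with earlier results of these data known, these shares are not a test of the group. The 4 calls depended on the controls. Without PBS replicate 2 none of the 4 passed (edgeR adjusted p = 0.0524 to 0.165, log2 fold changes 0.30 to 0.39). Without PBS replicate 3 none of the 4 passed either (edgeR adjusted p = 0.130 to 0.151, log2 fold changes 0.30 to 0.46). Over all genes, those called higher numbered 396 with all libraries, 18 without PBS replicate 2 and 9 without PBS replicate 3.

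Promoter sequence is shown for the 4 genes that rose together, so that DNA upstream of their starts can be read beside the values. RefSeq (GRCh38.p14) windows of the 250 bases before each annotated start were matched for all 10 genes by symbol, 17 windows in all. From a window of each called gene, up to 120 bases that lie in no GENCODE 29 exon are printed 5′ to 3′ on the gene's strand. For LTBP4 and PMEPA1 these are the most downstream of the 2 and 4 annotated starts, and the gene counts do not show which start was used. Capitals mark CAGAC, the core of SMAD binding elements, and GGCGC, a GC-rich SMAD motif, on either strand. Overlapping matches are each counted. The printed bases lie 250 to 142 bases before the start for LTBP2 and 138 to 19 for INHBA, the nearer bases being exon. For LTBP4 and PMEPA1 they lie 120 to 1 bases before the start. The LTBP2 stretch is chr14:74612379-74612487 (minus strand), that of LTBP4 chr19:40601249-40601368 (plus), that of INHBA chr7:41703109-41703228 (minus) and that of PMEPA1 chr20:57690687-57690806 (minus).
LTBP2: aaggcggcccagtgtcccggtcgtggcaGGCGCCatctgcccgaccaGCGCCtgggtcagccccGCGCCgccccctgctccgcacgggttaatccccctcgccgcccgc
LTBP4: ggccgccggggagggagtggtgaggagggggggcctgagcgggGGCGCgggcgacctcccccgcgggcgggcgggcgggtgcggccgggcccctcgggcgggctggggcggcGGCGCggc
INHBA: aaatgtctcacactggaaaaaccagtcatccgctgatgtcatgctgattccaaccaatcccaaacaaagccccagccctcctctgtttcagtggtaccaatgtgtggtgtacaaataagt
PMEPA1: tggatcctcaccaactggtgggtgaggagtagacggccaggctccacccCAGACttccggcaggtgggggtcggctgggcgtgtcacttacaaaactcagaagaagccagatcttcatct

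The 4 windows from which sequence is printed differ in base composition. Over the full 250-base windows, G and C made up 42.8% at INHBA, 68.8% at LTBP2, 81.6% at this start of LTBP4 and 56.8% at this start of PMEPA1. The share depended on the start taken. It was 45.2% at the other start of LTBP4 and ran from 55.6% to 76.8% over the 4 starts of PMEPA1. CAGAC was in 3 of the 8 windows of the 4 called genes and in 4 of the 9 windows of the other 6, beside 38.0% of all 34943 promoter windows. GGCGC was in 6 of 8 and 7 of 9, beside 44.4% of all windows. The AP-1 motif TGANTCA was found only at FST among the 17 windows (6.59% of all windows), and the cyclic AMP element TGACGTCA only at LTBP1 (1.63%). The windows of LTBP1 and LTBP3 overlap among themselves. The INHBA window lies inside that gene's annotated span, as do the windows of LTBP4 and PMEPA1 from which sequence is printed. The INHBA window held none of these 4 motifs in either orientation, which says only that these letters are not in it.

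Measured per gene length, TGFB1 and LTBP4 stood far above the other members. TGFB1 had 72.0 ± 3.00 FPKM with PBS and 78.6 ± 5.78 with rhTR11B (SD, n = 3 per group), higher than 94.8% of tested genes. LTBP4 followed at 35.4 ± 3.94 and 45.4 ± 4.08 FPKM. TGFBI and LTBP3 came next, at 7.67 and 7.33 FPKM over the 6 libraries, and their ranges overlapped, as did those of LTBP3 and INHBA (5.94 FPKM). INHBA (4.78 to 6.87 FPKM) and PMEPA1 (3.23 to 4.71 FPKM) did not overlap. PMEPA1 and LTBP2 (3.08 FPKM) overlapped, and so did LTBP2 and TGFB2 (2.11 FPKM) over all 6 libraries. Compared within each library, LTBP3 lay above INHBA, PMEPA1 above LTBP2 and LTBP2 above TGFB2 in every library. TGFBI and LTBP3 changed order between libraries. These levels rest on the gene lengths that the deposited FPKM imply, 4833 bases for LTBP3, 2712 for TGFBI and 8111 for INHBA. The GENCODE 29 exons of these genes cover 10298, 7810 and 8302 bases. The places of LTBP3 and TGFBI in this order therefore depend on the lengths taken. LTBP1 and FST were at the limit of detection.

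**Figure D1:**
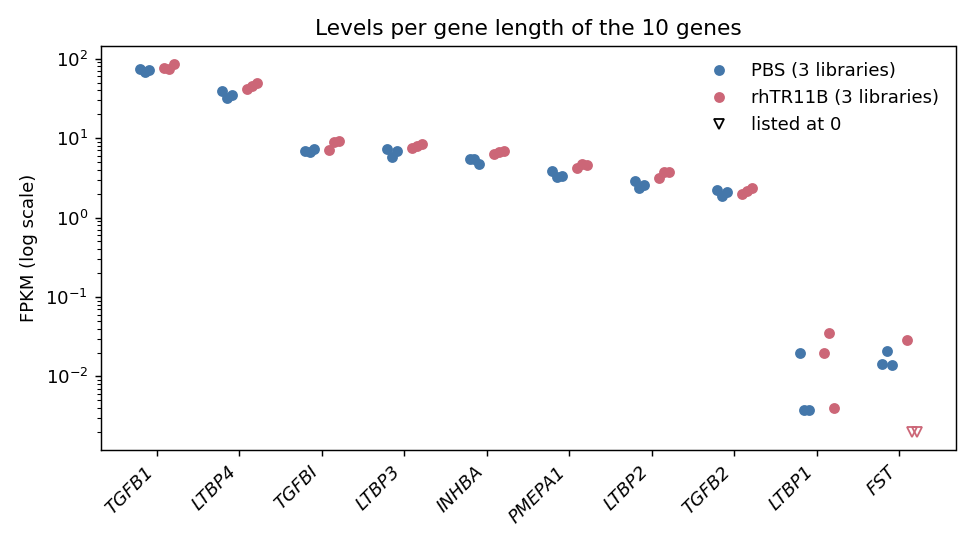
FPKM on a log axis for the 10 genes in the 3 PBS and 3 rhTR11B libraries, each point a library and open triangles libraries listed at 0. TGFB1 and LTBP4 lie above 30 FPKM, 6 genes lie between 1.85 and 9.26 FPKM, and LTBP1 and FST lie below 0.04 FPKM.

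Among the ligands, only the activin subunit gene passed the test, though differences between these folds were not part of that test. INHBA (chr7:41685114-41705406, minus strand) encodes the beta-A chain of activin A. Its level was 43.8, 44.3 and 38.8 CPM in PBS replicates 1, 2 and 3 and 52.3, 53.6 and 56.8 CPM in rhTR11B replicates 1, 2 and 3. Every rhTR11B library lay above every PBS library (log2 fold change 0.36, SE 0.07, adjusted p = 0.0134, edgeR). Its 95% interval ran from 1.16-fold to 1.42-fold.

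TGFB1 (chr19:41330323-41353922, minus strand), the most abundant TGF-beta ligand gene here, had 206, 189 and 203 CPM with PBS and 215, 204 and 241 CPM with rhTR11B. The groups overlapped, since rhTR11B replicate 2 lay below PBS replicate 1. Its log2 fold change of 0.15 (SE 0.07) did not pass (adjusted p = 0.188, edgeR), and the 95% interval ran from 1.00-fold to 1.22-fold. Exons of TGFB1 share 215 bases, 6.64% of their length in GENCODE 29, with HNRNPUL1 on the opposite strand, a gene of 11258 to 14664 counts per library. No source used here gives the strand setting, so reads of that stretch cannot be told apart.

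TGFB2 (chr1:218345336-218444619, plus strand), which encodes a second TGF-beta isoform, was low, with 13.1, 10.9 and 12.5 CPM with PBS and 11.8, 12.7 and 14.5 CPM with rhTR11B. The groups overlapped in part, with PBS replicate 2 below every rhTR11B library and rhTR11B replicate 3 above every PBS library. Of its exon bases 26.6% are shared with the same-strand transcript TGFB2-OT1, which was not analysed here. Its log2 fold change was 0.10 (SE 0.10, adjusted p = 0.608, edgeR), with a 95% interval from 0.919-fold to 1.24-fold. Per gene length, TGFB2 stood at 0.0297, 0.0270 and 0.0287 of the TGFB1 level in the PBS libraries and at 0.0256, 0.0290 and 0.0280 in the rhTR11B libraries, so TGFB1 outweighed TGFB2 in every library and the ratios overlapped between the groups (two-sided exact permutation p = 0.6, adjusted p = 0.7 over the 5 ratios computed).

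Of the storage proteins, LTBP2 and LTBP4 rose and LTBP3 fell short of the threshold. LTBP2 (chr14:74498183-74612237, minus strand) encodes a matrix protein that binds fibrillin microfibrils but, unlike its relatives, does not bind latent TGF-beta. It had 25.2, 20.6 and 22.9 CPM with PBS and 28.2, 32.4 and 34.1 CPM with rhTR11B, with no overlap between the groups (log2 fold change 0.46, SE 0.09, adjusted p = 0.0119, edgeR). This was the largest log2 fold change among the 8 tested members, and 4.47% of all tested genes had a larger one.

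LTBP4 (chr19:40593166-40629820, plus strand), a latent TGF-beta binding protein also known for its part in elastic fibre assembly, had 215, 172 and 188 CPM with PBS and 227, 246 and 275 CPM with rhTR11B. The groups did not overlap, but PBS replicate 1 came close to rhTR11B replicate 1 (log2 fold change 0.38, SE 0.08, adjusted p = 0.0206, edgeR).

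LTBP3 (chr11:65538559-65558359, minus strand), which binds latent TGF-beta and is known for its role in bone, had 34.8, 27.6 and 33.8 CPM with PBS and 36.6, 38.3 and 41.8 CPM with rhTR11B. The groups did not overlap, and the log2 fold change of 0.28 (SE 0.08) missed the threshold (adjusted p = 0.0664, edgeR). Its 95% interval, 1.07-fold to 1.37-fold, overlaps those of LTBP2 (1.21-fold to 1.57-fold) and LTBP4 (1.16-fold to 1.46-fold). LTBP3 passed without rhTR11B replicate 1 (adjusted p = 0.0349) and with DESeq2 (adjusted p = 0.0379), and without PBS replicate 2 its log2 fold change was 0.18.

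LTBP1 (chr2:32946953-33399509, plus strand), the founding member of the family and a main carrier of latent TGF-beta in many cells, was almost silent. It had 5, 1 and 1 counts with PBS and 5, 9 and 1 counts with rhTR11B. At such counts no difference was detectable.

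Per gene length, LTBP4 took 78.3% to 80.1% of the summed LTBP level in the 6 libraries, LTBP3 13.7% to 15.8%, LTBP2 5.76% to 6.47% and LTBP1 at most 0.0615%. The make-up of the family therefore differed little between libraries. The size of each share depends on the lengths that FPKM imply, 4833 bases for LTBP3 and 5449 for LTBP4. Their GENCODE 29 exons cover 10298 and 8108 bases. The summed LTBP level relative to the summed TGFB1 and TGFB2 level was 0.650, 0.569 and 0.589 with PBS and 0.660, 0.752 and 0.705 with rhTR11B. This ratio was higher in every rhTR11B library than in every PBS library, by 0.23 on the log2 scale (exact two-sided permutation p = 0.1, which 3 libraries against 3 cannot go below; adjusted p = 0.25 over 5 ratios). INHBA relative to TGFB1 stood at 0.0729, 0.0806 and 0.0656 with PBS and 0.0833, 0.0900 and 0.0807 with rhTR11B. The groups barely parted, with PBS replicate 2 next to rhTR11B replicate 3 (exact permutation p = 0.1, adjusted p = 0.25). TGFBI relative to TGFB1 overlapped between the groups and differed by 0.13 on the log2 scale (exact permutation p = 0.4, adjusted p = 0.667). The ratio of LTBP1 to the LTBP sum, resting on 1 to 9 counts, gave an exact permutation p = 0.7 (adjusted p = 0.7).

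**Figure D2:**
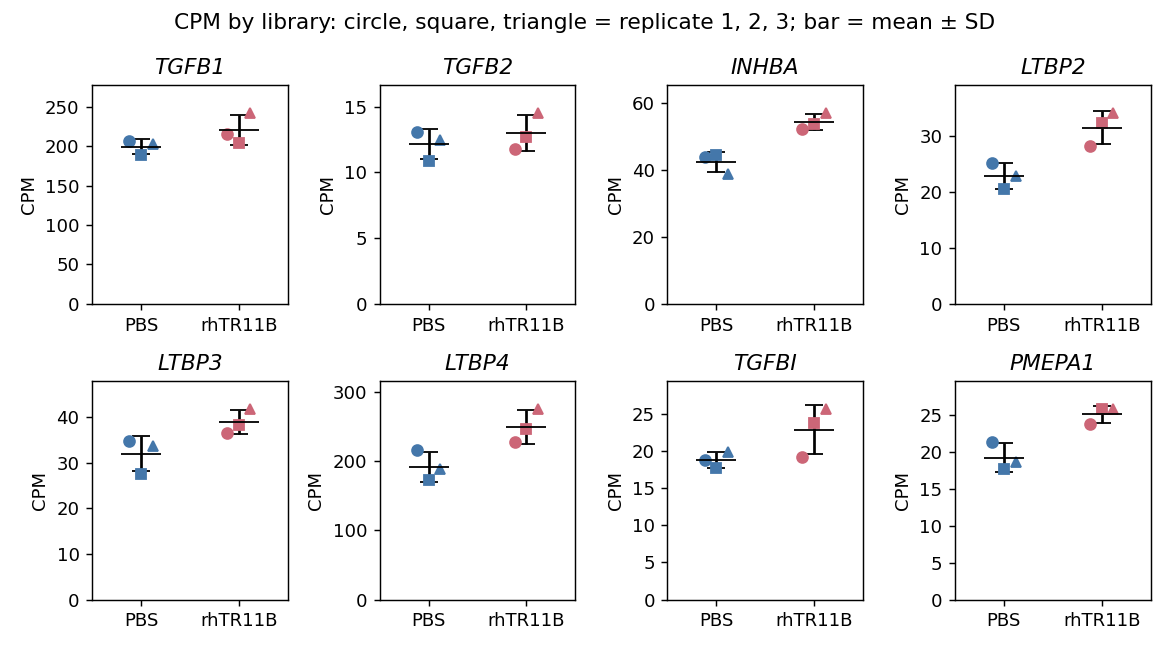
CPM of the 8 tested genes by library, with circles, squares and triangles for replicates 1, 2 and 3 and bars for the mean ± SD of each group of 3. INHBA, LTBP2, LTBP3, LTBP4 and PMEPA1 show rhTR11B libraries wholly above PBS libraries, and TGFB1, TGFB2 and TGFBI overlap.

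Follistatin, which binds and blocks activin, was hardly transcribed in these cells. FST (chr5:53480629-53487134, plus strand) had 2, 3 and 2 counts with PBS and 4, 0 and 0 counts with rhTR11B. A count of 0 allows up to 3 counts, or 0.0804 and 0.0842 CPM in rhTR11B replicates 2 and 3, and this limit covers counting error only. Per gene length, FST stood at 0.0163 ± 0.00395 FPKM with PBS, where INHBA stood at 5.24 ± 0.406 FPKM (SD, n = 3). The related antagonist FSTL3, which also binds activin, was present at 8.86 FPKM and rose. It had 19.5, 18.4 and 19.6 CPM with PBS and 24.0, 25.2 and 26.4 CPM with rhTR11B, without overlap (log2 fold change 0.40, adjusted p = 0.0134, edgeR). Without PBS replicate 2 and without PBS replicate 3 its adjusted p was 0.105 and 0.115.

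Of the TGF-beta-induced genes, PMEPA1 rose and TGFBI did not pass. PMEPA1 (chr20:57648396-57711472, minus strand) encodes a membrane protein that binds SMAD2 and SMAD3 and dampens the signal. It had 21.4, 17.6 and 18.6 CPM with PBS and 23.7, 25.7 and 25.8 CPM with rhTR11B. All rhTR11B libraries lay above all PBS libraries (log2 fold change 0.39, SE 0.08, adjusted p = 0.0231, edgeR). Its exons share 343 bases, 6.10% of their length, with the opposite-strand transcript NKILA, which had 27 to 50 counts per library.

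TGFBI (chr5:136028988-136063818, plus strand) encodes a secreted matrix protein that binds integrins. It had 18.8, 17.7 and 19.9 CPM with PBS and 19.2, 23.8 and 25.6 CPM with rhTR11B. The third PBS library lay above the first rhTR11B library (log2 fold change 0.28, SE 0.10, adjusted p = 0.0868, edgeR). Its value leaned on single rhTR11B libraries, at 0.39 without rhTR11B replicate 1 (adjusted p = 0.0128) and 0.20 without rhTR11B replicate 3.

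**Figure D3:**
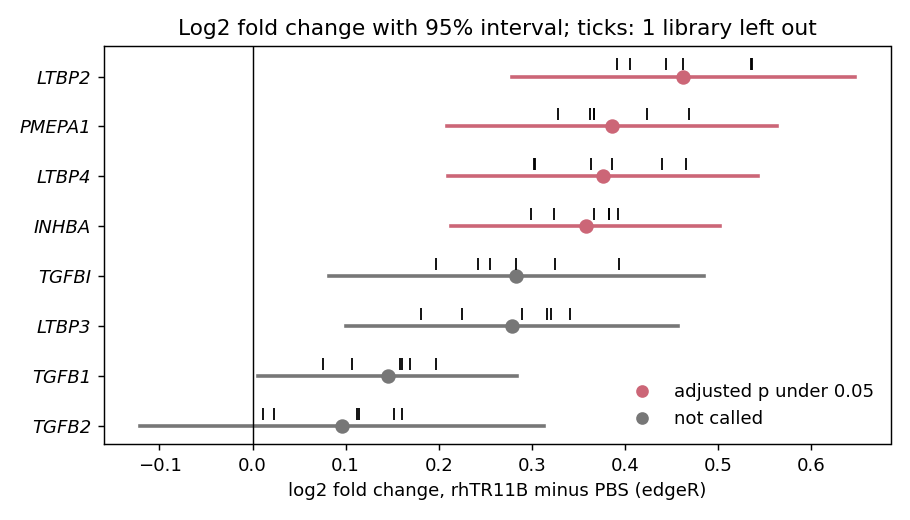
Log2 fold change of each tested gene (rhTR11B minus PBS, edgeR) with its 95% interval, and black ticks for the 6 fits that leave out 1 library. All ticks lie above 0, and the 4 called genes run from 0.30 to 0.54 across those fits.

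The members shared their low and high libraries. PBS replicate 2 was the lowest library for 7 of the 8 tested members, INHBA being the exception, and rhTR11B replicate 3 was the highest for 8 of 8. Over all tested genes these shares were 23.2% and 31.2%, and over the 396 genes called higher they were 67.9% and 90.7%. The same 2 libraries stood at the ends of the first principal component. The part of that shared shift, and of the mitochondrial and ribosomal shares, in the members' differences was not tested. Without the 13 mitochondrially encoded genes the same count of 4 members was called, at log2 fold changes of 0.36 to 0.47. Leaving out these rows alters other genes only through the scaling and the shared fit, so it does not measure the part of the mitochondrial share. Without rhTR11B replicate 3 all 4 were called as well, at 0.30 to 0.41. The groups did not overlap, with rhTR11B higher, for 5 of the 8 tested members and for 15.1% of all tested genes. Gene length, as implied by FPKM, was also compared. Among 2771 tested genes of 5449 to 8816 bases, the range of the 5 longest tested members, 3.72% were called higher. The median log2 fold change of these 2771 genes was 0.02.

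**Figure D4:**
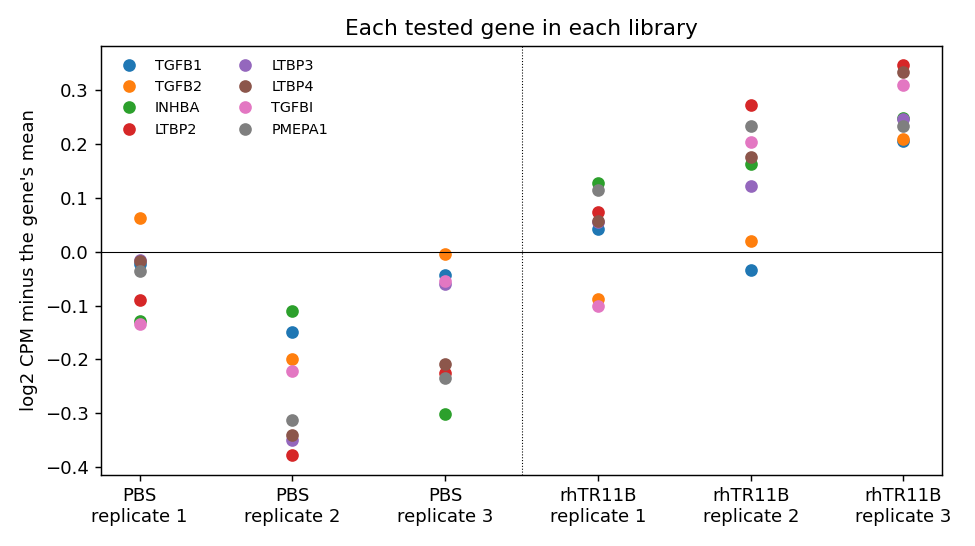
Log2 CPM of each of the 8 tested genes minus that gene's mean over the 6 libraries, with the libraries on the x axis and a dotted line between the groups. In rhTR11B replicate 3 all points lie above 0, and in PBS replicate 2 all lie below 0.

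The 3 members that varied most over the 6 libraries were LTBP2, LTBP4 and PMEPA1. Likeness to them was measured as the root mean square difference between centred log2 CPM profiles over the 6 libraries, among 10364 tested genes of at least 5 CPM, all measured in the same libraries. Nearest to LTBP2 were LRP1, an endocytic receptor of the LDL receptor family (0.0217 log2 units), and DNM1, a dynamin GTPase (0.0315). Nearest to LTBP4 were TMEM132A (0.0232) and the class I heavy chain HLA-C (0.0294), whose reads may be split among similar class I genes. Nearest to PMEPA1 was IFITM3, an interferon-induced membrane protein (0.0348). LRP1 for example had 100 and 85.7 CPM in PBS replicates 1 and 2 and 139 CPM in rhTR11B replicate 3.

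Around the members, genes that anchor or activate the latent complex included 5 that rose. Differences between lists were not tested, and each count stands beside the 2.92% of all tested genes called higher. The lists, too, were chosen with earlier results of these data known. Of 18 tested anchoring and activation genes, 13 did not pass, and all 18 log2 fold changes were positive (median 0.28). Those that rose were the membrane protease MMP14, which went from 115 ± 4.34 to 152 ± 8.74 CPM (SD, n = 3 per group; adjusted p = 0.00264, edgeR), urokinase PLAU (log2 fold change 0.38), the integrin chains ITGAV (0.29) and ITGB3 (0.32), which pair into a receptor of the latent complex, and fibronectin FN1 (0.78). FN1 rested on 2.52 to 3.45 CPM with PBS and 4.24 to 6.37 CPM with rhTR11B. ITGB1, the beta chain shared by many matrix receptors, had 0.21 (adjusted p = 0.0711) and the crosslinking enzyme TGM2 0.20 (adjusted p = 0.0547). Both passed with DESeq2 (adjusted p = 0.0128 and 0.0100), and TGM2 also when rhTR11B replicate 1 (adjusted p = 0.0480) or rhTR11B replicate 3 (adjusted p = 0.0162) was left out. Without PBS replicate 3 none of the 5 passed, and without PBS replicate 2 only MMP14 did. FN1 also missed the threshold without rhTR11B replicate 3 (adjusted p = 0.0562).

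Among other ligands and antagonists, 1 of 5 tested genes rose, FSTL3 above. The stress-induced ligand GDF15 had 122 ± 12.8 CPM with PBS and 150 ± 21.0 with rhTR11B, and GDF11 had 22.3 ± 0.834 and 25.1 ± 0.617 CPM, and neither passed (SD, n = 3 per group; adjusted p = 0.0608 and 0.161, edgeR). GDF15 passed without PBS replicate 1 (adjusted p = 0.0474), without rhTR11B replicate 1 (adjusted p = 0.00568), with DESeq2 (adjusted p = 0.0274) and with no low-count filter (adjusted p = 0.000642).

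Receptors did not pass the test in this comparison. EdgeR called 0 of 10 tested receptors and coreceptors, of which 6 were higher by its unadjusted p at 0.05 (13.8% of all tested genes), while 2 were higher with DESeq2. Their median log2 fold change was 0.21, and 9 of 10 were positive. TGFBR2, the ligand-binding TGF-beta receptor, had 69.8, 64.3 and 67.0 CPM with PBS and 74.6, 77.3 and 80.3 CPM with rhTR11B, without overlap (log2 fold change 0.21, adjusted p = 0.0590, edgeR). The coreceptor endoglin, ENG, had a log2 fold change of 0.27 (adjusted p = 0.0637). TGFBR2 and ENG each passed when rhTR11B replicate 1 was left out (adjusted p = 0.0428 and 0.0223) and with DESeq2 (adjusted p = 0.0282 and 0.0319).

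Likewise, no tested SMAD or SMAD regulator passed. EdgeR called 0 of 14, of which 0 were higher and 2 lower by its unadjusted p at 0.05 (10.3% of all tested genes were lower), while 1 was lower with DESeq2. The median log2 fold change was -0.03. The 2 lower by unadjusted p were SMAD2 (log2 fold change -0.21, adjusted p = 0.0684, edgeR) and TGIF2 (-0.18, adjusted p = 0.1495). In both, every rhTR11B library lay below every PBS library. That held for 3 of the 14 tested genes of this list and for 14% of all tested genes. Another 2 of the 14 lay wholly above PBS. SMAD2 and TGIF2 were singled out after their values were seen. SMAD3 itself stood at 338 ± 3.80 CPM with PBS and 344 ± 10.4 CPM with rhTR11B (SD, n = 3 per group; adjusted p = 0.821, edgeR). The ubiquitin ligase SMURF2 had a log2 fold change of -0.01 (adjusted p = 0.913), which turned positive when PBS replicate 2 or rhTR11B replicate 3 was left out.

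Of 25 tested SMAD3 target genes, 5 rose and 20 did not pass, with 14 positive values and a median log2 fold change of 0.16. This list shares MMP2, ITGB6, SMAD7 and SKIL with the lists above and COL1A1 with the fibroblast markers, whose summed level was given above and whose part in these counts was not tested. The 5 were the anchoring fibril collagen COL7A1 (0.63, adjusted p = 0.00115), podocalyxin PODXL (0.68, adjusted p = 0.00115), N-cadherin CDH2 (0.40, adjusted p = 0.00556) and the basement membrane collagens COL4A1 (0.27, adjusted p = 0.0277) and COL4A2 (0.26, adjusted p = 0.0472), all by edgeR. COL7A1 and PODXL also passed in each of the 6 fits with 1 library left out (adjusted p up to 0.0447 and 0.0446). CDH2 passed in 4 of these 6 fits, COL4A1 in 3 and COL4A2 in 2, with adjusted p up to 0.0977, 0.179 and 0.223. The 5 calls of the list became 2 without PBS replicate 2, 2 without PBS replicate 3 and 3 without PBS replicate 1. Of classic immediate targets of the pathway, the inhibitory SMAD7 had -0.09 (adjusted p = 0.508, edgeR) and the matricellular CCN2 -0.25 (adjusted p = 0.137). CCN2 was called lower without rhTR11B replicate 3 (-0.38, adjusted p = 0.0104) and with no low-count filter (adjusted p = 0.0427). SMAD7 and CCN2 were singled out after their values were seen. Of the most abundant targets not called, CCN1 had -0.06 (adjusted p = 0.633) and BHLHE40 0.16 (adjusted p = 0.110).

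**Figure D5:**
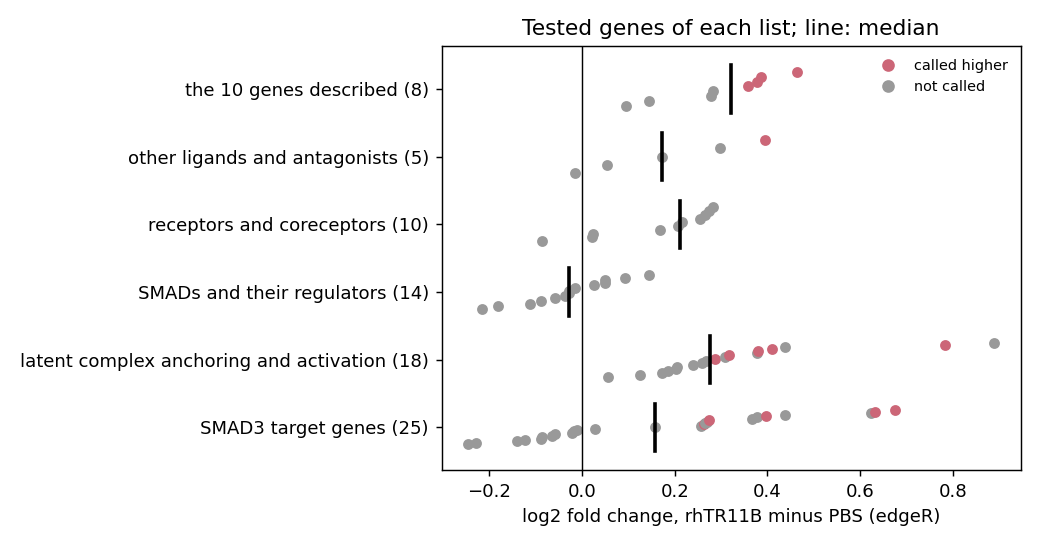
Log2 fold change (rhTR11B minus PBS, edgeR) of every tested gene in the 10 genes described and in 5 lists of the pathway, with the number tested in parentheses, red points for genes called higher and a black line at each median. The median is 0.32 for the genes described, 0.28 for anchoring and activation genes and -0.03 for SMADs and their regulators.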

How the data were processed

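The authors deposited read counts and FPKM values per gene symbol for the 6 libraries. Per the submitters' processing notes, fastp, HISAT, HTSeq, R 3.2.0 and DESeq2 were used with genome build GRCh38. For annotation and strand setting: not given in the sources used here. The deposited FPKM equal count over gene length and library total in 100% of values (relative tolerance 0.001), so they add levels per length, not new measurements.

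Counts were tested with edgeR 4.0.16 (R 4.3.3): filterByExpr with minimum count 10, TMM, group as only term, quasi-likelihood test, adjustment over 13567 genes. CPM use TMM-scaled sizes, and SE is log2 fold change over the root of F. The step was tried on simulated data in which all genes had the same dispersion and varied independently. That simulation held no shift shared by many genes of a library, so it does not bear on the shared shift described above. Ratios used FPKM and exact permutation tests. INHBA to FST could not be tested, FST being 0 in 2 libraries. Alternatives used DESeq2 1.42.0, limma 3.58.1, other scalings, filters and pseudocounts, the replicate block, and each library left out. Coordinates and promoters are from RefSeq GRCh38.p14 and exons from GENCODE 29.

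Members and lists were chosen with earlier results of these data known. Named were the 10 members, up to 5 called genes with the smallest p and 2 uncalled ones with the highest FPKM per pathway list, and the 2 nearest profiles of the 3 most variable members, of which 1 is not reported here. Lung epithelial, alveolar type 2, fibroblast, endothelial and blood markers were also listed. Of alveolar type 2 markers 1 of 3 tested was called higher by edgeR, beside 2.92% of all tested genes. Of 4 lung epithelial, 1 fibroblast, 1 endothelial and 3 blood markers tested, 0 were called by edgeR.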

Additional observations from a re-analysis of the deposited data

How the results depend on the processing

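All 8 tested members kept a positive log2 fold change under the 10 alternative fits and the 6 fits with 1 library left out, but the calls changed. Members called higher numbered 4, and 5 with DESeq2, 6 with no low-count filter, 0 on log2(FPKM + 1) where FPKM averaged 1 or more, 0 on log2(FPKM + 0.1) and 0 on log2(FPKM + 1) with no filter (limma; 6, 6 and 5 of the 8 at an unadjusted p under 0.05, beside 26.8%, 26.8% and 15.5% of all genes in those fits). With 1 library left out they numbered 0 to 6. Of all genes 396 were called higher and 92 lower, and 761 and 346 with DESeq2, 940 and 483 with no low-count filter, 205 and 26 at a mean of at least 5 CPM, 62 and 21 on log2(FPKM + 1), 64 and 22 on log2(FPKM + 0.1), 0 and 0 on log2(FPKM + 1) with no filter (3073 at an unadjusted p under 0.05 by limma), and 9 to 903 and 3 to 427 with 1 library left out. Of the 68 tested genes of the 5 pathway lists outside the members, 11 were called higher and 0 lower, and 18 and 1 with DESeq2, 22 and 2 with no low-count filter, 5 higher on log2(FPKM + 1), 5 on log2(FPKM + 0.1), 0 on log2(FPKM + 1) with no filter, and 2 to 18 and 0 to 1 with 1 library left out. The cause was not tested.

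With the replicate number as a block, 774 genes were called higher and 252 lower, with 6 members and, of the pathway lists, 20 higher and 1 lower. The numbers were not taken to pair the libraries: deviations of same-numbered libraries correlated at -0.10, 0.05 and -0.01 over genes. The TGFB2 to TGFB1 ratio differed by -0.05 log2 units, by 0.0050 without rhTR11B replicate 1 and by -0.087 to 0.0050 over the fits with 1 library left out. The LTBP1 share changed sign, to -0.22, with FPKM + 0.1, which exceeds its FPKM in every library. SMURF2 ranged from -0.043 to 0.037 with 1 library left out, being positive when PBS replicate 2 (0.015) or rhTR11B replicate 3 was absent. Of the members, FST and LTBP1 had too few counts to test.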

Other observations

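The other activin and inhibin subunit genes were close to silent, as was the antagonist FST. INHBB had 0 to 6, INHBC 1 to 8, INHBE 0 to 4 and INHA 5 to 15 counts per library, and none could be tested. TGFB3, the third TGF-beta isoform, had 71 to 97 counts and a log2 fold change of 0.05 (SE 0.21, adjusted p = 0.905, edgeR).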
